A study of Mus musculus with 31 samples.

Results

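The NRF2 antioxidant response genes described here are 10 genes named by symbol: the transcription factor gene Nfe2l2, its inhibitor Keap1, and the 8 effector genes Slc7a11, Gclc, Gclm, Txnrd1, Srxn1, Prdx1, Hmox1 and Nqo1. They were read from the table of gene counts by their symbols and not by a cut on measured values. The set was chosen with earlier results of these data known. All 10 were found among the 24411 entries of that table and passed the filter on low counts that left 12337 genes for testing. The libraries were made from Ly6C-high monocytes of C57BL/6J mice, which were sorted as CD11b+ Ly6G- MHC-II- cells. There were 3 groups of 3 libraries: blood of healthy mice (healthy blood), blood of mice carrying a subcutaneous Lewis lung carcinoma (LLC, a mouse lung tumor line that grows on transplantation), called LLC blood, and the tumors themselves, called LLC tumor. The mice carried no stated allele or drug treatment, and their age and the age of the tumors were not given in the sources used here. The title of the series poses the question behind the comparisons, which is how monocytes in the blood are conditioned before they meet the tumor.

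NRF2, the product of Nfe2l2, is held in the cytoplasm by KEAP1, which hands it to a CUL3 ubiquitin ligase for degradation. Oxidants and electrophiles modify KEAP1, NRF2 then accumulates, pairs with a small MAF protein and binds antioxidant response elements, so much of its control is exerted on the protein and does not show in the Nfe2l2 transcript. The repressor BACH1 occupies the same elements, and heme releases it, most clearly at Hmox1. In myeloid cells the pathway is known for restraining oxidative damage and for handling heme and iron taken up from dying cells.

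Total counts were 10457492 to 20706412 per library. The chi-square per degree of freedom between replicates was 4.55 to 45.5, so no library was a copy of another. LLC tumor 1 stood apart, at 45.5 with LLC tumor 2 and 35.7 with LLC tumor 3, against 6.58 for LLC tumor 2 with 3. The labels do not say that the libraries of a group came from separate animals, so p-values measure the spread between these libraries, which may be technical, and a batch running along with the groups and the groups themselves cannot be told apart. In bulk RNA, fewer cells of a type and less RNA per cell cannot be told apart either. Of the monocyte markers, Itgam, which encodes the sorted CD11b, stood at 893 to 949 CPM (counts scaled to the library total) in healthy blood, at 1337 to 1490.5 CPM in LLC blood and at 3193 to 3720 CPM in LLC tumor. Csf1r, the receptor for the monocyte growth factor, was at 1780 to 2135 CPM in blood and at 1172 to 1601 CPM in LLC tumor. Ly6c2, which encodes the sorted Ly6C antigen, stood at 1571 to 1728 CPM in healthy blood, at 1099 to 1237 CPM in LLC blood and at 272 to 472 CPM in LLC tumor. The 7 macrophage markers summed to 695 to 854 CPM in blood and to 1450 to 2005 CPM in LLC tumor, where 6 of the 7 passed the test as higher than in LLC blood. The remaining gene, Adgre1, passed as lower, at 164 to 212 CPM in LLC tumor against 310 to 340 CPM in LLC blood. The 6 fibroblast markers summed to 3.13 to 15.5 CPM in healthy blood and to 936, 3467 and 3921 CPM in LLC tumor 1 to 3, with none at 0 in that group and 4 of the 6 higher than in LLC blood. They were at 409 CPM in LLC blood 1 against 1.38 and 1.93 CPM in the other LLC blood libraries. The 6 tumor and epithelial markers summed to 1.35 to 2.73 CPM in blood and to 65.0 to 109 CPM in LLC tumor, mostly from Cdh1 and Krt18, with Epcam at 0 in LLC tumor 1 and 2. Of 15 dissociation stress genes, 14 were higher in LLC tumor than in LLC blood. The sum of the 15 was 12787 to 15116 CPM in LLC tumor and 4842 to 7096 CPM in healthy blood. In LLC blood 1 to 3 it was 4838, 2075 and 1809 CPM.

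The sequences before the transcription start are shown for the 4 members that were higher in both LLC blood and LLC tumor than in healthy blood, and for Prdx1, which passed in no comparison. They are the 250 bases upstream of the start site in RefSeq on GRCm38.p6, the assembly behind the mm10 build named in the submitters' processing notes, each on the strand of its gene. Capitals mark a match, on either strand, to the antioxidant response element core TGACNNNGC, the amino acid response element core TGATGNAA bound by ATF4 complexes, or the AP-1 site TGACTCA. Where TGACTCA is followed by GC the first and the last of these overlap, as in the second match of Prdx1.

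Slc7a11 (chr3:50443614-50443863, minus strand): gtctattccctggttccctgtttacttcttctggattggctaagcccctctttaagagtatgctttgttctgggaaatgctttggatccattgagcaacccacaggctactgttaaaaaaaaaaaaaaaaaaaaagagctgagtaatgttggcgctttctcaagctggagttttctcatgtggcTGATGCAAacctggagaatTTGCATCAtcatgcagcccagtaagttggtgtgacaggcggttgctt
Srxn1 (chr2:152105274-152105523, plus strand): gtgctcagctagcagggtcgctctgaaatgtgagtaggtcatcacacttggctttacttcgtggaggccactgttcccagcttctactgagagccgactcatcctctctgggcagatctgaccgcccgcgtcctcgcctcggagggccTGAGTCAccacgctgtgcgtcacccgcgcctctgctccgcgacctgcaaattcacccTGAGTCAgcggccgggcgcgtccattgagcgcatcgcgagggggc
Txnrd1 (chr10:82858956-82859205, plus strand): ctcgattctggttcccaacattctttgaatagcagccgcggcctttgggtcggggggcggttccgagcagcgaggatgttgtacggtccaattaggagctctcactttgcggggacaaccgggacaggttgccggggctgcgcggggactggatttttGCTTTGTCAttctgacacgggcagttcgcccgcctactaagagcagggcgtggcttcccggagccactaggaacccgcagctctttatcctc
Gclm (chr3:122245307-122245556, plus strand): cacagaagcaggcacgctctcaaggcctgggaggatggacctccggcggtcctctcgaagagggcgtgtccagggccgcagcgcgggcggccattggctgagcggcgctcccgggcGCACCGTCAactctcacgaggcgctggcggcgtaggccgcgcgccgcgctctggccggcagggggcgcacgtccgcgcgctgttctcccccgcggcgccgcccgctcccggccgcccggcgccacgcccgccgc
Prdx1 (chr4:116685349-116685598, plus strand): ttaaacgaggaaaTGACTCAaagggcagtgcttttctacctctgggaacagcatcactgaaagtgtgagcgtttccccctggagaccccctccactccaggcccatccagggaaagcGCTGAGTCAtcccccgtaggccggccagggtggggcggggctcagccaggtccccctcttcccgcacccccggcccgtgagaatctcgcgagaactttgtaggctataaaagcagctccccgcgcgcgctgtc

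Windows of 250 bases before to 50 bases after a start site were matched to 8 of the 10 members by symbol (10 windows, of which Txnrd1 has 3). TGACNNNGC lay in a window of 5 members, against 12.4% of all 32851 windows of 27025 genes. Those were Nfe2l2 (from position -240), Gclm (from -134), Srxn1 (from 29, after the start and so not in the printed stretch), Txnrd1 (from -92, in 1 of its 3 windows) and Prdx1 (from -133). The Slc7a11 window held no TGACNNNGC and held TGATGCAA from -66 and, on the other strand, from -47, where 3.97% of all windows hold at least 1 TGATGNAA. TGACTCA, present in 5.20% of windows, lay in Srxn1 from -102 and -45 and in Prdx1 from -237 and -131. A match describes letters in a window and not an occupied site, and Prdx1 holds the same core as Gclm and Txnrd1. The printed Slc7a11, Txnrd1 and Gclm start sites lie inside the spans annotated for these genes (chr3:50364936-50499087, chr10:82833951-82897724 and chr3:122245487-122267215). Each may thus be only one of several possible starts.

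In LLC blood against healthy blood, the cystine antiporter gene Slc7a11, the sulfiredoxin gene Srxn1, the ligase modifier gene Gclm and the thioredoxin reductase gene Txnrd1 rose. They were higher by 2.10-fold, 1.55-fold, 1.499-fold and 1.46-fold. No member fell, and Nfe2l2, Keap1, Hmox1, Nqo1, Gclc and Prdx1 did not pass the test. The test throughout is edgeR's quasi-likelihood test with Benjamini-Hochberg (BH) adjustment over all 12337 genes, and genes under an adjusted p of 0.05 are called. Among all genes 23.6% were called, 14.0% higher and 9.61% lower, and 0.235% were called higher by 8-fold or more, none of them a member. The LLC blood libraries lay above all healthy ones for 6 members, against 27.5% of genes, and below them for 0 members, against 23.8% of genes. The 10 members had a median log2 fold change of 0.38 beside -0.01 over all genes.

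LLC tumor against LLC blood gave larger values for 5 effectors. Slc7a11 was higher by 49.9-fold, Hmox1 by 10.9-fold, Srxn1 by 8.15-fold, Txnrd1 by 2.47-fold and Nqo1, at a few counts per library, by 2.37-fold. Keap1, Nfe2l2 and Gclc fell, and Gclm and Prdx1 did not pass. Nqo1 entered the test only because of the tumor group: the filter needs 0.715 CPM in 3 libraries, which Nqo1 reached in 3 tumor libraries and 1 blood library, so its place among the 5 is no support. Here 29.6% of all genes were called higher and 31.7% lower, so 5 members higher and 3 lower of 10 has to be read against a comparison in which 61.3% of genes passed. The share of genes called higher by at least 8-fold was 8.10%, and 3 members (Slc7a11, Hmox1 and Srxn1) were among them. In the order of fold changes Slc7a11 was at place 462 from the top. The tumor libraries lay above all of LLC blood for 4 members and below them for 3, against 23.5% and 44.8% of genes. The members' median was 0.82 beside -0.03 over all genes. It lies midway between Gclm at 0.41 and Nqo1 at 1.24, so it rests on Nqo1 and is no support either.

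Against healthy blood, 6 members were higher in LLC tumor and 2 lower, where 33.5% and 33.0% of all genes were and 66.5% passed in all. Nqo1 is counted in this 6, in the counts without overlap and in the median below. It entered the test only because of the tumor group, so its place in them is no support. Slc7a11, Srxn1 and Hmox1 were again higher by at least 8-fold, as were 8.07% of genes. The tumor libraries lay above all of healthy blood for 6 members and below for 2, against 26.9% and 43.7% of genes. The members' median was 1.42 beside 0.00 over all genes, as the plot of changes by gene shows. The 3 comparisons share their groups of libraries, so the values are set side by side and their likeness is no separate result. Levels are given in CPM of the library total, while fold changes are scaled by TMM (a trimmed mean over genes). With library totals alone the median gene lay at -0.23 in LLC tumor against LLC blood and at -0.17 against healthy blood, so CPM in LLC tumor read slightly low beside the fold changes.

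**Figure D1:**
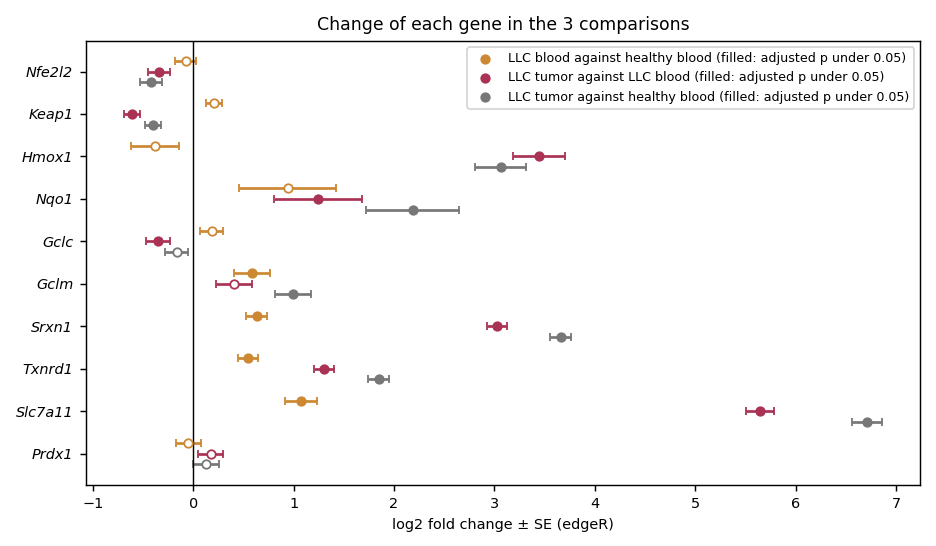
Log2 fold change with its standard error (horizontal axis) for each of the 10 genes in the 3 comparisons, with filled points at an adjusted p under 0.05. Slc7a11 lies farthest to the right, at 5.64 against LLC blood and 6.71 against healthy blood, and Nfe2l2 and Keap1 lie left of 0 in LLC tumor.

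The first genes by role are the factor and its inhibitor. Nfe2l2 (ENSMUSG00000015839, chr2:75675513-75704663) was measured at 257, 256 and 243 CPM in healthy blood 1 to 3, at 234, 226 and 269 CPM in LLC blood and at 167, 170.0 and 162 CPM in LLC tumor. The blood groups overlapped, and every tumor library lay below every blood library. Its log2 fold change was -0.08 ± 0.108 (SE) in LLC blood against healthy blood (adjusted p = 0.657), -0.34 ± 0.108 in LLC tumor against LLC blood (adjusted p = 0.0207) and -0.42 ± 0.108 against healthy blood (adjusted p = 0.00721). Keap1 (ENSMUSG00000003308, chr9:21229730-21239332) was measured at 77.1, 81.7 and 79.0 CPM in healthy blood, at 102, 93.6 and 84.4 CPM in LLC blood and at 47.2, 58.7 and 54.3 CPM in LLC tumor. All LLC blood libraries stood above all healthy ones, as happens for 27.5% of genes in this comparison, but the difference did not pass (log2 fold change 0.21 ± 0.0783, adjusted p = 0.0847). Keap1 fell in LLC tumor, by 0.61 ± 0.0795 on the log2 scale against LLC blood (adjusted p = 0.000134) and by 0.40 ± 0.0795 against healthy blood (adjusted p = 0.00156). The fall of Nfe2l2 against LLC blood did not pass without LLC blood 3 (adjusted p = 0.0729), LLC tumor 2 (0.0660) or LLC tumor 3 (0.0807), and with LLC tumor 1 as the only tumor library it was -0.14 (adjusted p = 0.329).

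**Figure D2:**
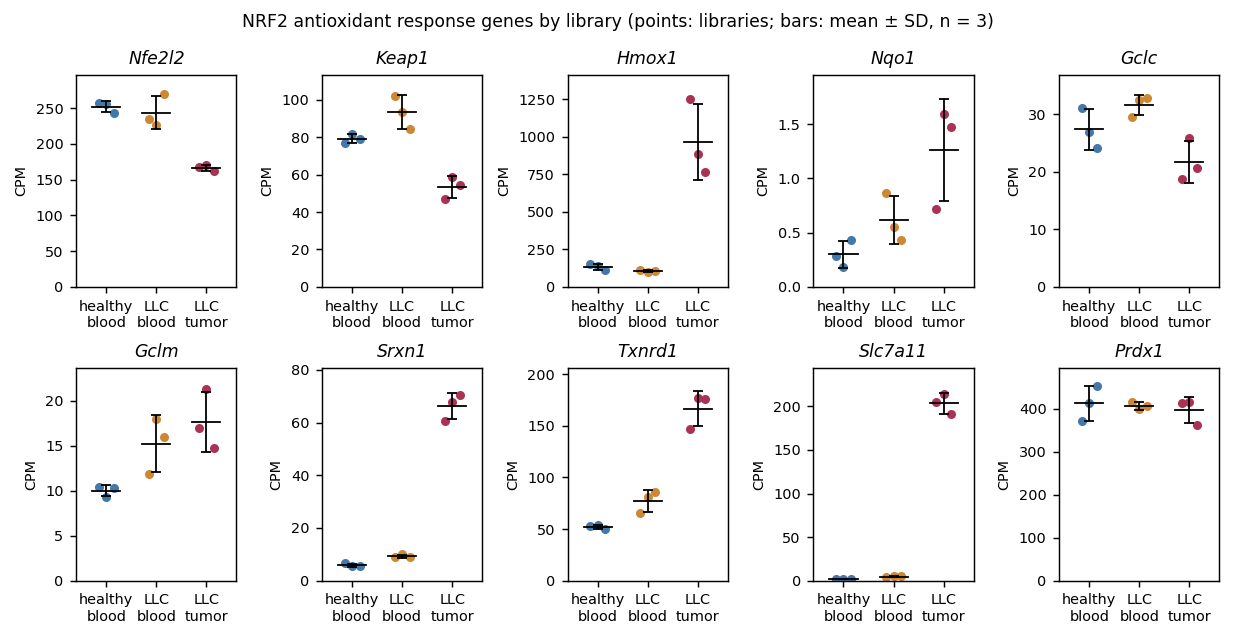
CPM (vertical axis, from 0, a scale of its own in each panel) of the 10 genes in each library, with the mean and SD of 3 libraries. The tumor libraries of Slc7a11 (191 to 214 CPM), Srxn1 and Hmox1 lie far above all blood libraries, and those of Nfe2l2 and Keap1 lie below them.

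Slc7a11, Gclc and Gclm supply glutathione. Slc7a11 (ENSMUSG00000027737) encodes xCT, the light chain of the antiporter that takes up cystine in exchange for glutamate. It was measured at 2.03, 2.38 and 2.12 CPM in healthy blood (28, 39 and 35 reads), at 4.00, 5.08 and 4.88 CPM in LLC blood (42, 73 and 101 reads) and at 205, 214 and 191 CPM in LLC tumor. The groups did not overlap anywhere. It rose by 1.07 ± 0.161 on the log2 scale in LLC blood (adjusted p = 0.00201), by 5.64 ± 0.138 in LLC tumor against LLC blood (adjusted p = 5.14e-08) and by 6.71 ± 0.1495 against healthy blood (adjusted p = 2.94e-08), the last being 105-fold. Its counts were not whole numbers in any of the 9 libraries, so part of its reads were shared with other entries, and the size of that part is not known. The same holds for Txnip in 9 libraries, G6pdx in 8, Ftl1 in 7, Cbr1 and Cbr3 in 3 each and Sod2 in 1, among the genes described below.

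Gclc encodes the catalytic subunit of glutamate-cysteine ligase, the first enzyme of glutathione synthesis. Gclc (ENSMUSG00000032350, chr9:77754535-77794489) was measured at 31.1, 26.9 and 24.1 CPM in healthy blood, at 29.5, 32.4 and 32.8 CPM in LLC blood and at 18.8, 25.8 and 20.7 CPM in LLC tumor. The tumor libraries were below those of LLC blood and overlapped those of healthy blood. It fell against LLC blood (log2 fold change -0.35 ± 0.116, adjusted p = 0.0251), while the values in LLC blood (0.18 ± 0.114, adjusted p = 0.273) and in LLC tumor against healthy blood (-0.17 ± 0.116, adjusted p = 0.231) did not pass. That fall did not pass without healthy blood 2 (adjusted p = 0.0533), LLC blood 3 (0.0720), LLC tumor 1 (0.0510) or LLC tumor 3 (0.0939), nor with DESeq2-type size factors (0.0574) or DESeq2 (0.0688), and in all it was lost in 10 of 22 alternatives. Gclm encodes the modifier subunit, which makes the enzyme more efficient. Gclm (ENSMUSG00000028124, chr3:122245487-122267215) was measured at 10.4, 9.28 and 10.4 CPM in healthy blood, at 11.9, 18.0 and 15.9 CPM in LLC blood and at 17.0, 21.3 and 14.8 CPM in LLC tumor. Healthy blood was lowest throughout, and the groups of tumor-bearing mice overlapped. It rose by 0.58 ± 0.179 in LLC blood (adjusted p = 0.0423) and by 0.99 ± 0.180 in LLC tumor against healthy blood (adjusted p = 0.000954), and did not pass in LLC tumor against LLC blood (0.41 ± 0.177, adjusted p = 0.0718). The call in LLC blood was lost without any healthy blood library (adjusted p = 0.0937, 0.163 and 0.104 without 1, 2 and 3), without LLC blood 2 (0.163) and without LLC blood 3 (0.133), and the call was absent in 9 of 21 alternatives. In LLC tumor against LLC blood Gclm passed as higher without LLC tumor 3 (0.55, adjusted p = 0.0224), with DESeq2-type size factors (0.47, adjusted p = 0.0421) and with DESeq2 (0.47, adjusted p = 0.0404). The 2 subunits of the same enzyme thus had opposite signs in LLC tumor against healthy blood, with the catalytic one not past the test, and the difference between them was not tested.

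Txnrd1, Srxn1 and Prdx1 act on protein and peroxide thiols. Txnrd1 encodes the cytosolic thioredoxin reductase, which recharges thioredoxin with electrons from NADPH. It (ENSMUSG00000020250) was measured at 53.0, 53.6 and 49.7 CPM in healthy blood, at 65.0, 80.7 and 85.7 CPM in LLC blood and at 147, 177 and 176 CPM in LLC tumor. The groups did not overlap, and the order was healthy blood, LLC blood, LLC tumor. Txnrd1 rose by 0.54 ± 0.0997 in LLC blood (adjusted p = 0.00470), by 1.30 ± 0.0997 in LLC tumor against LLC blood (adjusted p = 4.86e-06) and by 1.85 ± 0.102 against healthy blood (adjusted p = 6.47e-07).

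Srxn1 encodes sulfiredoxin, which restores peroxiredoxins that have been over-oxidised by peroxide. It (ENSMUSG00000032802, chr2:152105524-152111376) was measured at 6.57, 5.47 and 5.70 CPM in healthy blood, at 8.99, 10.0 and 8.98 CPM in LLC blood and at 60.8, 67.8 and 70.4 CPM in LLC tumor. The same order without overlap held. Srxn1 rose by 0.63 ± 0.103 in LLC blood (adjusted p = 0.00278), by 3.03 ± 0.0987 in LLC tumor against LLC blood (adjusted p = 1.04e-07) and by 3.66 ± 0.103 against healthy blood (adjusted p = 5e-08). Prdx1, a peroxiredoxin that sulfiredoxin repairs, passed in no comparison. Prdx1 (ENSMUSG00000028691, chr4:116685599-116700000) was measured at 372, 413 and 453 CPM in healthy blood, at 416, 399 and 405 CPM in LLC blood and at 413, 415 and 363 CPM in LLC tumor. All groups overlapped. Its log2 fold change was -0.05 ± 0.125 in LLC blood (adjusted p = 0.819), 0.18 ± 0.125 in LLC tumor against LLC blood (adjusted p = 0.249) and 0.13 ± 0.125 against healthy blood (adjusted p = 0.392), and with library totals alone the value against LLC blood was -0.03. With LLC tumor 1 as the only tumor library Prdx1 passed, at 0.42 (adjusted p = 0.0101) against LLC blood.

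Hmox1 and Nqo1 act on heme and quinones. Hmox1 encodes heme oxygenase 1, which opens heme and releases iron, biliverdin and carbon monoxide. It (ENSMUSG00000005413, chr8:75093618-75100593) was measured at 149, 141 and 111 CPM in healthy blood, at 114, 97.8 and 103 CPM in LLC blood and at 1251, 884 and 767 CPM in LLC tumor. The blood groups overlapped, and the lowest tumor library was above every blood library. Hmox1 rose by 3.44 ± 0.259 in LLC tumor against LLC blood (adjusted p = 4.42e-06) and by 3.06 ± 0.255 against healthy blood (adjusted p = 6.91e-06). In LLC blood its log2 fold change was -0.38 ± 0.238 (adjusted p = 0.285), on the opposite side of 0 from Slc7a11, Srxn1, Txnrd1 and Gclm. In a fit of the 6 blood libraries alone, in which the tumor libraries do not enter the estimate of the spread, that value was -0.39 ± 0.111 and passed (adjusted p = 0.0229), as it did without LLC tumor 1 (-0.43, adjusted p = 0.0198). Of the erythroid markers, the hemoglobin gene Hbb-bs was at 81.7 to 266 CPM in healthy blood, at 61.3 to 358 CPM in LLC blood and at 0 to 1.52 CPM in LLC tumor, with Slc4a1 at 0 in all tumor libraries, and their part in the Hmox1 values was not tested.

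Nqo1 encodes a quinone reductase that is used as a readout of NRF2 in many tissues. Nqo1 (ENSMUSG00000003849, chr8:107388225-107403205) had 4, 3 and 7 reads in healthy blood (0.286, 0.184 and 0.429 CPM), 9, 8 and 9 in LLC blood (0.861, 0.553 and 0.435 CPM) and 8, 18 and 17 in LLC tumor (0.722, 1.60 and 1.47 CPM). LLC tumor 1 lay within LLC blood, and both tumor-bearing groups lay above healthy blood. Its log2 fold change of 1.24 ± 0.435 in LLC tumor against LLC blood (adjusted p = 0.0317) passed in spite of that overlap and was lost without LLC blood 2, LLC blood 3, LLC tumor 2, LLC tumor 3 or healthy blood 1 (largest adjusted p = 0.141). It was also lost with DESeq2 (adjusted p = 0.0507), the replicate block (0.0572), library totals (0.0741) and no filter (0.0819), in all in 11 of 20 alternatives. The value of 2.18 ± 0.465 against healthy blood passed (adjusted p = 0.00241), and that of 0.94 ± 0.485 in LLC blood did not (adjusted p = 0.194). As Nqo1 entered the test only because of the tumor libraries, its passing against either blood group is no support.

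The spread between the tumor libraries differed from member to member, as the plot of tumor libraries shows. Slc7a11 was at 101%, 105% and 93.9% of the tumor mean in LLC tumor 1 to 3, and Srxn1 at 91.6%, 102% and 106%. Nqo1 was at 57.2%, 126% and 116%, beside fibroblast markers at 33.7%, 125% and 141%. Hmox1 ran the other way, at 129%, 91.3% and 79.3%. With LLC tumor 1 as the only tumor library, a choice made after the marker sums were seen, Slc7a11 was higher than in LLC blood by 5.85 (adjusted p = 4.44e-08), Hmox1 by 3.98 (adjusted p = 3.96e-07), Srxn1 by 3.10 (adjusted p = 4.92e-07) and Txnrd1 by 1.33 (adjusted p = 9.07e-05). These values carry the TMM factor of that library, 0.798, against 0.9996 and 0.968 in LLC tumor 2 and 3, while by CPM Srxn1 and Txnrd1 (88.2%) were lowest in LLC tumor 1. The part of fibroblast RNA in the tumor values was not tested. Nqo1 was at 0.67 (adjusted p = 0.467) and did not pass. In that fit the spread of the single tumor library was taken to be that of the blood groups. The calls in LLC blood were also made without LLC blood 1, where fibroblast markers and the dissociation stress sum stood apart. The values were 1.16 for Slc7a11 (adjusted p = 0.00237), 0.67 for Srxn1 (0.00550), 0.66 for Txnrd1 (0.000869) and 0.74 for Gclm (0.0160). The sums of the dissociation stress genes and of the macrophage markers rose with the tumor members as given above, and their part was not tested.

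**Figure D3:**
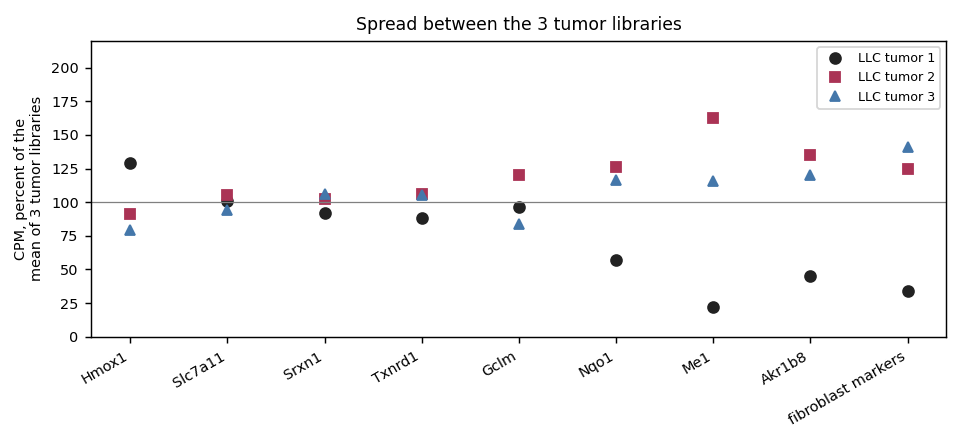
Level in each tumor library as a percent of the mean of the 3 tumor libraries (vertical axis, from 0) for 6 members, for Me1 and Akr1b8, and for the sum of 6 fibroblast markers. Slc7a11, Srxn1 and Txnrd1 lie near 100% in all 3 libraries. LLC tumor 1 is lowest for Nqo1, Me1, Akr1b8 and the fibroblast markers, and by less for Srxn1 (91.6%) and Txnrd1 (88.2%).

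The genes around the members were grouped in 7 lists by role. Of their 64 tested genes 56 were called in LLC tumor against LLC blood, a share of 87.5% beside 61.3% of all genes, and no test compares these shares. The 56 include Me1, Gstm5, Slc40a1 and Akr1b8, which passed the filter on low counts only through the tumor libraries. The lists were also chosen with earlier results of these data known, so the share is no support for a change particular to them. Of 10 partners and regulators of NRF2, 8 were higher and 2 lower in LLC tumor than in LLC blood, where 29.6% and 31.7% of all genes were, with a median of 0.68 beside -0.03, and in LLC blood against healthy blood 1 was higher and 1 lower, with a median of -0.15. Atf4, the factor of the integrated stress response that also drives Slc7a11, was measured at 181, 172 and 169 CPM in healthy blood, at 135, 126 and 128 CPM in LLC blood and at 377, 337 and 292 CPM in LLC tumor. All LLC blood libraries were lowest and all tumor libraries highest. Atf4 rose in LLC tumor against LLC blood (1.59 ± 0.149, adjusted p = 1.76e-05). In LLC blood its log2 fold change was -0.45 ± 0.147 (adjusted p = 0.0537), on the border of the threshold. It passed as lower in 12 of 21 alternatives, among them the fit of the 6 blood libraries (adjusted p = 0.000527), DESeq2 (0.0160), the replicate block (0.0360), and the fits without LLC tumor 1 (0.000732) or LLC tumor 3 (0.0338), over a range of 0.000496 to 0.156. Sqstm1, whose protein p62 binds KEAP1 and draws it into autophagy, rose from 157 ± 10.1 CPM (SD, n = 3) in LLC blood to 375 ± 80.6 CPM in LLC tumor (1.48 ± 0.202, adjusted p = 0.000174). Mafg, a small MAF partner, was 26.8 ± 1.71 CPM in healthy blood, 40.0 ± 6.16 CPM in LLC blood and 45.9 ± 3.52 CPM in LLC tumor, and was higher in LLC blood than in healthy blood (0.55 ± 0.133, adjusted p = 0.0163), a call that did not pass without healthy blood 2 (0.0870), healthy blood 3 (0.0692) or LLC blood 2 (0.0556). Bach1, the repressor of the same elements, was measured at 413, 427 and 451 CPM in LLC blood and 289, 208 and 239 CPM in LLC tumor, and fell (-0.59 ± 0.174, adjusted p = 0.0157). The call of Bach1 was lost without LLC tumor 3 (adjusted p = 0.0581), and with LLC tumor 1 alone as the tumor group it was -0.17 (adjusted p = 0.143).

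**Figure D4:**
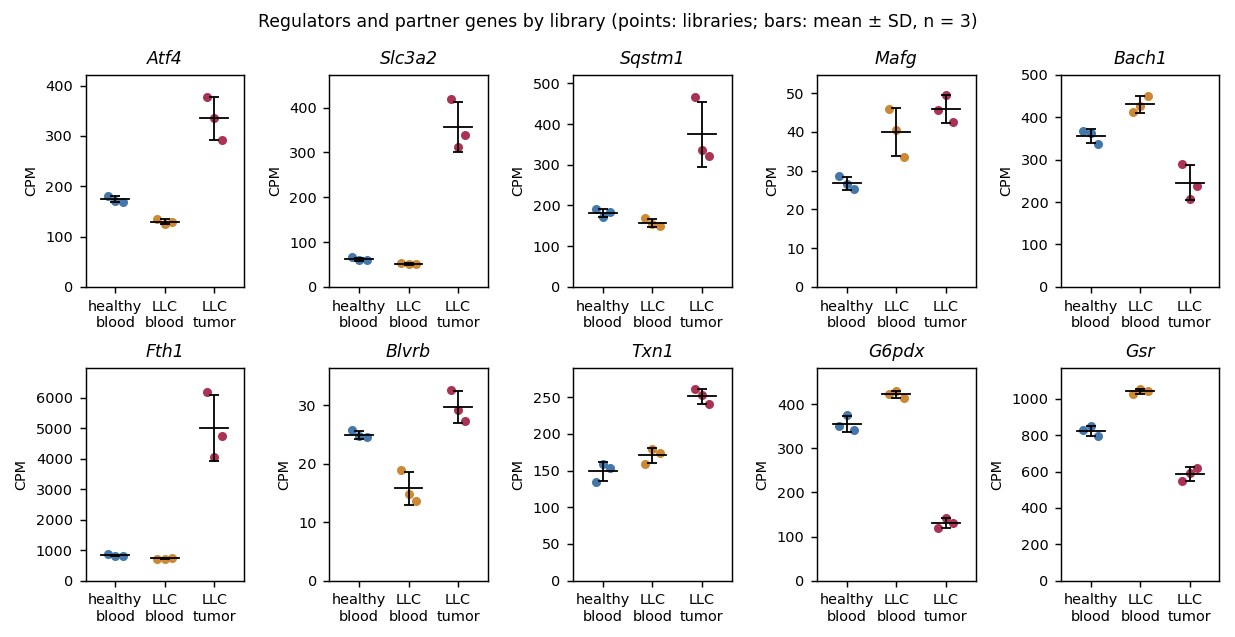
CPM (vertical axis, from 0, a scale of its own in each panel) of 10 regulator and partner genes in each library, with the mean and SD of 3 libraries. Atf4, Slc3a2, Sqstm1 and Fth1 are highest in LLC tumor, and Bach1, G6pdx and Gsr are lowest there.

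Among 17 glutathione genes, of which 15 were tested, 4 were higher and 8 lower in LLC tumor than in LLC blood, with a median of -0.41. Over all tested genes 29.6% were higher and 31.7% lower, with a median of -0.03. The 4 and the median include Gstm5, which passed the filter on low counts only through the tumor libraries. Slc3a2 encodes the heavy chain that carries xCT to the membrane, and was measured at 54.1, 50.9 and 49.98 CPM in LLC blood and 420.2, 313 and 339 CPM in LLC tumor. It rose by 3.02 ± 0.181 (adjusted p = 1.16e-06), so both chains of the cystine antiporter were higher in every tumor library. In LLC blood against healthy blood Slc3a2 was at -0.28 ± 0.172 (adjusted p = 0.269), and without LLC tumor 1 this value passed (-0.33, adjusted p = 0.00655). Gsr, which reduces oxidised glutathione, went from 823 ± 27.1 CPM in healthy blood to 1041 ± 13.9 CPM in LLC blood and 586 ± 38.7 CPM in LLC tumor. It was higher in LLC blood than in healthy blood (0.31 ± 0.0865, adjusted p = 0.0294) and fell in LLC tumor against LLC blood (-0.63 ± 0.0868, adjusted p = 0.000194). The rise of Gsr in LLC blood did not pass without any healthy blood library, LLC blood 2 or LLC blood 3 (largest adjusted p = 0.120). Gpx1, the main glutathione peroxidase of the cytosol, fell from 1069 ± 115 CPM to 549 ± 72.0 CPM (-0.74 ± 0.166, adjusted p = 0.00352).

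Of 12 thioredoxin and peroxiredoxin genes, 7 were higher and 3 lower in LLC tumor than in LLC blood, with a median of 0.39. The shares of all genes were 29.6% and 31.7%, and their median was -0.03. Txn1, the substrate of the reductase, was measured at 160, 179 and 174 CPM in LLC blood and 261, 252 and 240.5 CPM in LLC tumor and rose (0.77 ± 0.118, adjusted p = 0.000378). Txnip, which binds and inhibits thioredoxin, was 1114 ± 159 CPM in healthy blood, 663 ± 83.6 CPM in LLC blood and 295 ± 72.7 CPM in LLC tumor. It fell in LLC tumor against LLC blood (-0.93 ± 0.240, adjusted p = 0.00748), and the fall in LLC blood (-0.77 ± 0.238, adjusted p = 0.0435) was lost without any of the 6 blood libraries (largest adjusted p = 0.151). Prdx5 was at 454 ± 37.1 CPM in LLC blood and 542 ± 95.5 CPM in LLC tumor, and its call (0.48 ± 0.183, adjusted p = 0.0433) was lost without any of 8 libraries, LLC tumor 2 being the exception (largest adjusted p = 0.143).

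Of the 7 genes of NADPH supply, 6 were lower and 1 higher in LLC tumor than in LLC blood, with a median of -0.40, where 31.7% of all genes were called lower. G6pdx, which opens the pentose phosphate pathway, was measured at 422, 430.3 and 415 CPM in LLC blood and 120, 143 and 132 CPM in LLC tumor. Its libraries did not overlap, and it fell by 1.49 ± 0.0741 (adjusted p = 4.75e-07). Pgd, the next NADPH-yielding enzyme, fell from 543 ± 27.4 CPM to 363 ± 15.5 CPM (-0.37 ± 0.115, adjusted p = 0.0194), a call lost without LLC tumor 2 (0.0629) or LLC tumor 3 (0.0773). The gene that rose was malic enzyme Me1, named after its values were seen. Me1 had 3, 0 and 2 reads in LLC blood and was at 2.08, 15.1 and 10.7 CPM in LLC tumor, at least 43.6-fold higher than a floor of 3 counts per library. Like Nqo1 it passed the filter on low counts only through the tumor libraries, as did Gstm5, Slc40a1 and Akr1b8 of the other lists. The counts of these genes as risers and their place in the list medians are thus no support.

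Of 7 heme and iron genes, 4 were higher and 1 lower in LLC tumor than in LLC blood, with a median of 0.80. The 4 and the median include Slc40a1, which passed the filter on low counts only through the tumor libraries. Its place in them is no support. The shares of all genes were 29.6% and 31.7%, and their median was -0.03. Fth1, the heavy chain of ferritin, was measured at 708, 726 and 751 CPM in LLC blood and 6181, 4053 and 4758 CPM in LLC tumor and rose by 3.01 ± 0.224 (adjusted p = 4.08e-06), beside Hmox1 at 3.44. Ftl1, the light chain, rose by 0.80 ± 0.213 (adjusted p = 0.00894). Blvrb, which encodes biliverdin reductase B, was 25.01 ± 0.692 CPM in healthy blood, 15.8 ± 2.78 CPM in LLC blood and 29.7 ± 2.73 CPM in LLC tumor. It fell in LLC blood (-0.70 ± 0.164, adjusted p = 0.0147), a call lost without healthy blood 1 (0.0508), LLC blood 2 (0.0627) or LLC blood 3 (0.0707), and rose in LLC tumor against LLC blood (1.13 ± 0.166, adjusted p = 0.000277). The iron exporter Slc40a1 was at 0.956, 0.553 and 0.338 CPM in LLC blood and 5.15, 5.76 and 3.72 CPM in LLC tumor (3.25 ± 1.15, adjusted p = 0.0331), and that call was lost without LLC tumor 2 or any LLC blood library (largest adjusted p = 0.109). In healthy blood Slc40a1 was at 0.286, 6.63 and 0.184 CPM, so healthy blood 2 alone set the mean of that group.

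Of 5 genes of superoxide and peroxide removal, 4 were tested, with 1 higher and 3 lower in LLC tumor than in LLC blood and a median of -0.78. For this list and the next, the shares of all genes were 29.6% higher and 31.7% lower, with a median of -0.03. Sod2, the mitochondrial superoxide dismutase, was the riser, from 64.2 ± 0.962 CPM to 99.1 ± 21.8 CPM (0.86 ± 0.198, adjusted p = 0.00422). Catalase, encoded by Cat, was measured at 120, 113 and 117 CPM in LLC blood and 47.0, 54.5 and 53.7 CPM in LLC tumor and fell by 0.97 ± 0.0667 (adjusted p = 2.56e-06). Of 10 quinone and carbonyl genes, 9 were tested, with 5 higher and 3 lower and a median of 0.84. The 5 and the median include Akr1b8, which passed the filter on low counts only through the tumor libraries. Its place in them is no support. The carbonyl reductase gene Cbr3 fell (-1.04 ± 0.233, adjusted p = 0.00369) and Cbr1 was at -0.28 ± 0.160 (adjusted p = 0.162). Akr1b8, an aldo-keto reductase named after its values were seen, had 2, 3 and 1 reads in LLC blood and was at 9.22, 27.6 and 24.6 CPM in LLC tumor, at least 96.0-fold higher than a floor of 3 counts per library.

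In LLC blood against healthy blood 10 of the 64 tested list genes were called, 4 higher and 6 lower, a share of 15.6% beside 23.6% of all genes. Of the glutathione genes 2 were higher and 2 lower with a median of -0.08, and of the thioredoxin genes 2 were lower with a median of -0.07. NADPH supply had 1 gene higher and a median of 0.22, heme and iron 1 lower and a median of -0.20, and the remaining lists no call, with medians of -0.03 and -0.06. Markers of other cells also differed between the blood groups without overlap. The sum of the T cell markers was 3.04 to 4.59 CPM in LLC blood against 31.1 to 137 CPM in healthy blood, that of the NK cell markers 23.6 to 41.7 CPM against 160.4 to 362 CPM, and that of the dendritic cell markers 24.2 to 39.2 CPM against 70.2 to 85.0 CPM. The neutrophil sum was higher in LLC blood, at 237 to 390 CPM against 170 to 207 CPM. It came mostly from Mmp8 (231 to 313 CPM against 167 to 180 CPM). At low levels Elane (3.35 to 8.51 CPM against 0.368 to 0.553 CPM) and Mpo (1.05 to 4.08 CPM against 0.572 to 0.737 CPM) were also higher without overlap. Ltf, Camp, Ngp, Retnlg and Cxcr2 overlapped between the groups. The platelet sum was lower, at 17.9 to 20.8 CPM against 39.1 to 40.5 CPM. It came mostly from Itgb3 (13.1 to 17.7 CPM against 24.6 to 34.6 CPM). Gp9 was also lower without overlap (0.0692 to 0.290 CPM against 0.357 to 1.35 CPM), while Ppbp, Itga2b, Gp1bb and Gp5 overlapped. The dissociation stress sum was also lower in LLC blood without overlap, though LLC blood 1 (4838 CPM) lay close to the lowest healthy library (4842 CPM). The part of all these genes in the values of the members and the lists in LLC blood was not tested.

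**Figure D5:**
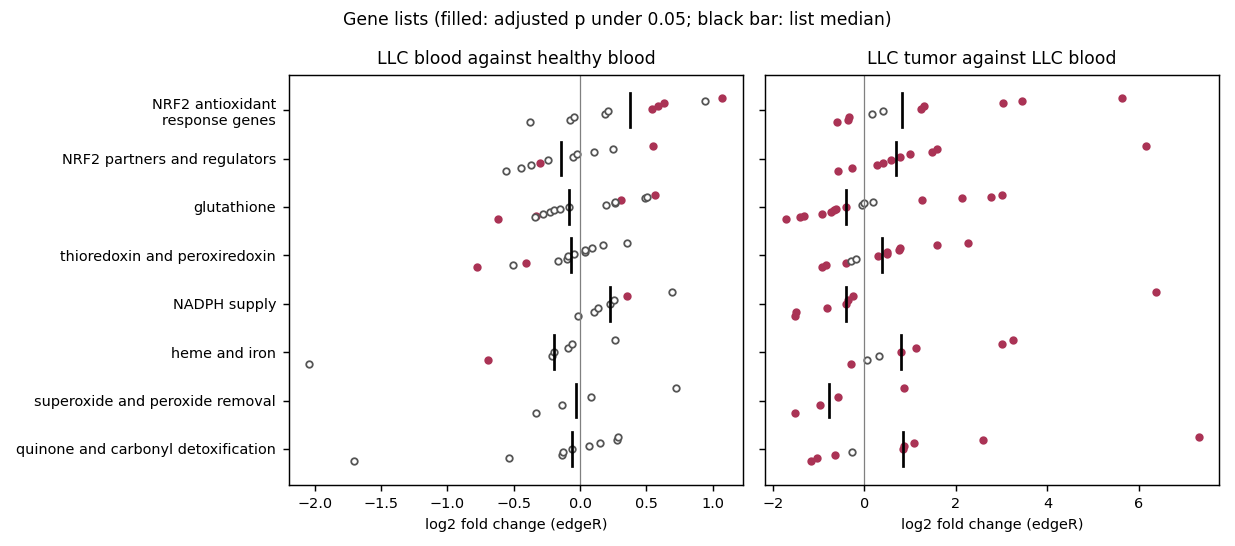
Log2 fold change (horizontal axis) of every tested gene of the members and the 7 lists for LLC blood relative to healthy blood (left) and LLC tumor relative to LLC blood (right), with filled points at an adjusted p under 0.05 and a black bar at the list median. In LLC tumor the NADPH supply genes lie left of 0 but for Me1, and the regulators lie to the right but for Bach1 and Rbx1.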

How the data were processed

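The authors deposited a table of estimated counts (expected counts, not scaled) under gene symbols and a CPM table of 10693 of the genes, whose choice is not given in the sources used here. Per the submitters' processing notes the tools included Trim Galore 0.6.7, cutadapt 3.4, STAR 2.6.1d, Salmon 1.9.0 and edgeR, on mm10. Between 7.43% and 8.29% of counts per library were not whole (tolerance 0.01), as for reads shared between genes. The blood column heads carry the letters BM, which were taken to stand for blood monocytes, as the titles of these samples say blood; the tables themselves do not settle whether bone marrow is meant. The other 22 samples were not analysed here. Counts were rounded, filtered with filterByExpr, scaled by TMM and fitted over all 9 libraries with edgeR 4.0.16 (quasi-likelihood, group as the term), with BH adjustment per comparison and a gene called at an adjusted p under 0.05. Alternatives used limma 3.58.1 and DESeq2 1.42.0. Whole reads recovered from the CPM values deposited by the authors made up 100% of them and called 2584, 6792 and 7236 genes in the 3 comparisons. All 10 members and 20 other genes, picked for their roles, are named. The members and the lists were chosen with earlier results of these data known. The members' promoter windows and spans come from RefSeq tables. Floors cover counting error only. Some marker genes are not reported here.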

Additional observations from a re-analysis of the deposited data

How the results depend on the processing

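The tumor calls of Slc7a11, Srxn1, Txnrd1 and Hmox1 kept their direction and passed under all 22 alternatives, as did Slc7a11 in LLC blood under all 21, while Srxn1 and Txnrd1 in LLC blood passed in all but the requirement of a change of 2-fold or more (fold requirement). In LLC blood against healthy blood 2917 genes passed, and this became 5884 with limma-voom and sample weights, 4889 in a fit of the 6 libraries compared, 1386 at an adjusted p under 0.01, 769 with the fold requirement and 1494 to 5064 when a library was left out, the ends being those without LLC blood 2 and without LLC tumor 1. Members called lower there became 1, namely Hmox1, with limma-voom, in the 6 libraries and without LLC tumor 1 (range 0 to 1), and members called higher became 1 with the fold requirement. In LLC tumor against LLC blood the members called lower became 1 at an adjusted p under 0.01, 0 with the fold requirement, 1 with LLC tumor 1 as the only tumor library, and 1 to 3 when a library was left out, and the genes called became 3538 of 7566 with the fold requirement. Against healthy blood the fold requirement left 3989 of 8208 genes and 0 members lower, and LLC tumor 1 alone left 1 member lower. Prdx5 there turned from -0.02 to 0.40 (adjusted p = 0.00744) with LLC tumor 1 alone. The cause of these changes was not tested. Same-numbered libraries did not reach a correlation over 0.1 in every pair and were not taken as pairs: their deviations correlated at 0.297, 0.181 and 0.0730 in blood and at -0.0780, 0.120 and -0.137 for LLC tumor with LLC blood, and at 0.0761, 0.0499 and 0.0918 for LLC tumor with healthy blood. With the replicate block 2788, 7455 and 8092 genes passed in the 3 comparisons and 3 members were higher in LLC blood; the block in only the 6 libraries compared gave 4820 genes and 1 member lower in LLC blood and 1 member lower in LLC tumor against LLC blood. The fits on recovered reads, on LLC tumor 1 alone and with the block in 6 libraries were chosen after seeing the data. Depth limits Nqo1, at 3 to 18 reads.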
